A study of Mus musculus with 12 samples.

Results

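The genes described here build and move the cytoskeleton: tubulins, microtubule-associated proteins, kinesins, dynein and dynactin subunits, actin-related proteins and actin filament regulators, myosins and neurofilaments. They were chosen by symbol alone, with no expression value used, as the genes with values in all 12 samples whose symbol matched the families' name stems. This gave 85 of 6427 genes, measured by 140 cDNA clones. The families had 110 symbols in the probe table of the arrays, and 25 of them had no values, among them Actb and Actg1, the cytoplasmic actins, Tuba1b, an alpha-tubulin, and Myh9, a non-muscle myosin heavy chain. The 85 genes comprised 14 genes of tubulins and the gamma-tubulin complex, 5 microtubule-associated proteins and stathmins, 17 kinesins and kinesin light chains, 14 dynein and dynactin subunits, 3 actin-related proteins, 10 actin filament regulators, 1 actinin, 18 myosin chains and 2 neurofilament subunits. The last gene, Cflar, an inhibitor of death receptor signalling, matched the stems by its letters only and is no cytoskeletal gene.

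The series compared whole-brain RNA of C57Bl/6j mice at postnatal day 10 in 3 genotypes: wildtype, Gja9 (-/-), which lacks both copies of the gene, and Gja9 (+/-), which lacks 1. The labels' Gja9 is today's Gjd2, and it encodes connexin36, the gap junction protein of electrical synapses between neurons. Each genotype had 4 samples, named biological replicas in the design text, on 2 spotted cDNA arrays of 2 colours. The first array of each genotype was taken to hold its samples 1 and 2, and the second its samples 3 and 4. A value is the log2 signal of a clone relative to the mean signal of its sample, so 0 is the sample mean and 1 unit is a 2-fold difference, and clones of a gene were averaged.

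Microtubules are hollow polymers of alpha- and beta-tubulin that carry cargo along axons and dendrites, with kinesins mostly walking outward and cytoplasmic dynein walking back toward the cell body. Actin filaments shape growth cones and dendritic spines, are branched, capped and severed by dedicated proteins, and are pulled by myosins. Neurofilaments fill large axons and set their calibre, and young neurons in the second postnatal week are still extending these processes.

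Promoters are shown for the gene that passed the test, Myo9a, a single-headed class IX myosin, and for the kinesin and the other myosin that differed most between Gja9 (-/-) and Gja9 (+/-) brains in absolute size. Kif1a is an axonal motor for synaptic vesicle precursors, and Myh8 is the perinatal myosin heavy chain of skeletal muscle. The sequences are RefSeq's on GRCm38.p6, 300 bases each that lie mostly before the annotated start, written 5′ to 3′ on the strand of the gene. Myo9a lies at chr9:59750924-59751223 on the plus strand, Kif1a at chr1:93101825-93102124 on the minus strand, which is 1 of 2 entries for that gene, and Myh8 at chr11:67276874-67277173 on the plus strand. Capitals mark 4 motifs searched on both strands: the TATA box TATAAA, the CCAAT box CCAAT, the GC box GGGCGG and the core of the cyclic AMP response element TGACG.
Myo9a: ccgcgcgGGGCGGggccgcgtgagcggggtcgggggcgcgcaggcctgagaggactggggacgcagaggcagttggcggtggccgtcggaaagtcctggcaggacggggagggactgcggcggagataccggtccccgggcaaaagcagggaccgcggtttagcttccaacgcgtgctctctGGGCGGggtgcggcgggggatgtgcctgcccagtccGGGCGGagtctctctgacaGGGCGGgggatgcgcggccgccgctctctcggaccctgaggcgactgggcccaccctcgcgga
Kif1a: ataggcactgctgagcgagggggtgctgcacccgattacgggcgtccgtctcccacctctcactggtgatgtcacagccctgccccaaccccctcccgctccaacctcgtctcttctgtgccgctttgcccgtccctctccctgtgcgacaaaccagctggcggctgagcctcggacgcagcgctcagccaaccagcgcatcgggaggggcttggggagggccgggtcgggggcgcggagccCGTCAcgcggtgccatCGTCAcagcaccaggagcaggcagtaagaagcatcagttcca
Myh8: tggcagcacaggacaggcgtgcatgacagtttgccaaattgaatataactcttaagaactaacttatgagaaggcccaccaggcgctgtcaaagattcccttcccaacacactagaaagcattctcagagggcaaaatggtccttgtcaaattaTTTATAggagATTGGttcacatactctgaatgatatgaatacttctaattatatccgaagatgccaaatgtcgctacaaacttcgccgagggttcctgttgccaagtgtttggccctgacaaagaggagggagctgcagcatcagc
The Myo9a window held 4 GC boxes, the Kif1a window 2 response element cores, and the Myh8 window 1 TATA box and 1 CCAAT box, and no matches overlapped. A promoter was in the table for 64 of the 85 genes. A GC box occurred in 68.8% of those 64 genes and in 38.2% of all 27025 genes in the table, and the response element core in 34.4% and 23.0%. The TATA box occurred in 10.9% and 15.7%, and the CCAAT box in 39.1% and 41.1%. These matches describe the letters of the windows only.

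Neuron markers were high in these libraries, which are labelled as brain. All 5 measured neuron markers of 11 listed, Syt1, Tubb3, Nefl, Nefm and Map2, lay above the sample mean signal. Their mean level ranged from 1.68 to 2.05 in wildtype, from 0.76 to 1.84 in Gja9 (-/-) and from 1.74 to 1.99 in Gja9 (+/-) samples. All but Syt1 are themselves among the 85 genes, so this mean is no separate reading beside them. The mean of 4 measured astrocyte markers of 8 listed, Slc1a3, Aldoc, Glul and Fabp7, was 0.33 to 1.11 in wildtype, 1.26 to 1.49 in Gja9 (-/-) and 0.74 to 1.12 in Gja9 (+/-) samples, with a median difference of 0.63 between Gja9 (-/-) and wildtype. None of them passed (limma, adjusted p under 0.05), and their part in the values of the 85 genes was not tested. The probe table names no clone for Gjd2, so the deletion was not checked here. In whole brain, fewer cells of a type and less RNA per cell cannot be told apart. The samples of 1 array were nearly alike, with a median difference of 0.13 between the colours over the 85 genes and of 0.13 over all 9514 features tested. The median difference between the arrays of 1 genotype was 0.35 in wildtype, 0.40 in Gja9 (-/-) and 0.29 in Gja9 (+/-) samples over the 85 genes, and 0.36, 0.43 and 0.28 over all features. The arrays, not the colours, thus carried most of the spread within a genotype, and the test kept the array as a random block. The block used 1 correlation between the colours of an array, 0.927, for all features. A gene's standard error (SE) thus drew on its colour differences as well as on its array differences. Klc1 had colours 0.06 apart, Gja9 (-/-) arrays 1.02 apart and an SE of 0.31 against wildtype. For Myh8 these were 0.16, 0.18 and 0.40. P-values therefore do not measure the array spread of each gene alone. Each array held 1 genotype only, so every genotype difference is also a difference between arrays. The labels do not state that each sample came from its own mouse.

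Cytoskeletal gene expression was compared first between brains with no copy of Gja9 and wildtype brains. Only Myo9a passed the test of these 85 genes, and it was lower in Gja9 (-/-) brains. That is 1 of 85 genes beside 0.326% of all features (limma with an array block, Benjamini-Hochberg adjusted p under 0.05). At an unadjusted p under 0.05, 1 gene was higher, Tubb6, beside 2.41% of all features, and 7 were lower, beside 9.22%: Dctn5, Kif23, Kif26a, Klc1, Myh8, Myo9a and Nefm. The 4 values of each genotype did not overlap for 7 genes higher and 14 lower in Gja9 (-/-) brains, where all features gave 7.52% and 15.6%. The median log2 difference was -0.17 over the 85 genes and -0.10 over all features, with 33 genes positive and 52 negative. The count that passed was 0 with each array averaged to 1 reading and 11 with no array block, a fit that called 15.4% of all features.

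Gja9 (+/-) brains were compared with the same wildtype samples. None of the 85 genes passed, beside 0.0% of all features (limma, adjusted p under 0.05), and the count was also 0 in every alternative fit that was run. At an unadjusted p under 0.05 Tuba8 was higher, beside 1.67% of features, and Kif23 and Myo9a were lower, beside 0.515%. Groups did not overlap for 12 genes higher and 8 lower, beside 8.67% and 6.09% of features. The median difference was -0.01 over the 85 genes and 0.03 over all features.

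Brains with no copy were then set against those with 1 copy, a comparison that shares samples with both others. None of the 85 genes passed, beside 0.273% of features (limma, adjusted p under 0.05), and the count was also 0 with array averages but 22 with no array block, beside 22.3% of features. An unadjusted p under 0.05 was found for 4 genes higher in Gja9 (-/-) brains, Actr3, Dctn6, Kif1a and Myl6, beside 3.64% of features, and for 6 lower, Arpc1a, Kif26a, Klc1, Myh8, Myo9a and Nefm, beside 11.3%. Groups did not overlap for 10 genes higher and 19 lower, beside 10.2% and 22.5%. The median difference was -0.22 over the 85 genes and -0.17 over all features. In the F-test over the 3 genotypes, 0 of the 85 genes passed beside 0.326% of features, and Myo9a came nearest at an adjusted p of 0.0553 in limma. That count was 13 with no array block, beside 21.0% of features.

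**Figure D1:**
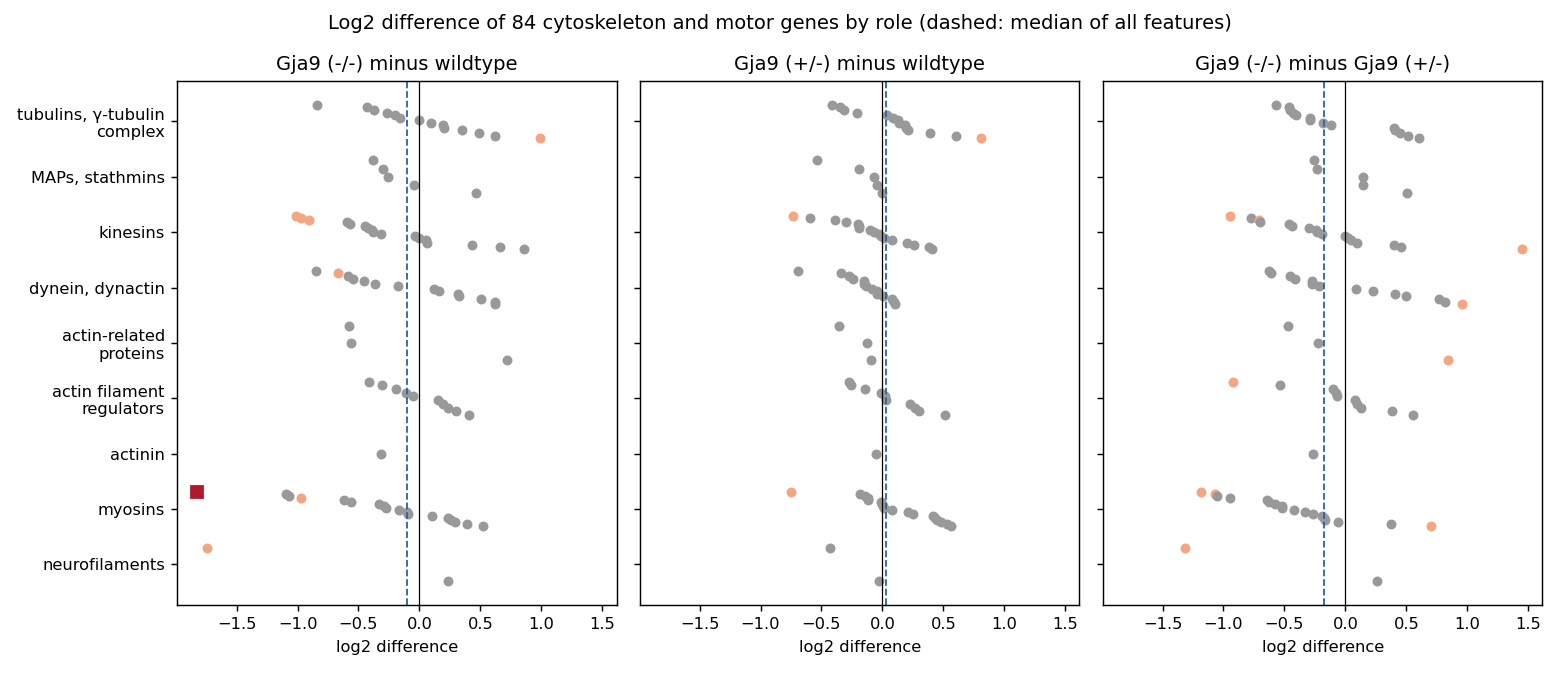
Log2 difference between genotypes (horizontal axis) of 84 genes, Cflar left out, in rows by role, with 1 panel per comparison. The red square passed at an adjusted p under 0.05 (Myo9a at -1.82), orange points had an unadjusted p under 0.05, grey points did not, and the dashed line is the median of all features at -0.10, 0.03 and -0.17.

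Of 14 genes of tubulins and the gamma-tubulin complex, 0 passed in any comparison. Against wildtype, 7 were positive and 7 negative in Gja9 (-/-) brains (median 0.05), and 10 positive and 4 negative in Gja9 (+/-) brains (median 0.13). Between Gja9 (-/-) and Gja9 (+/-) brains, 5 were positive and 9 negative (median -0.24). Tubb6, a beta-tubulin, read 2.72, 2.81, 3.51 and 3.61 in wildtype, 4.34, 4.40, 3.93 and 3.94 in Gja9 (-/-) and 3.68, 3.62, 3.45 and 3.46 in Gja9 (+/-) samples. The Gja9 (-/-) samples were all above the others, and the wildtype and Gja9 (+/-) samples overlapped. The difference between Gja9 (-/-) and wildtype was 0.99 ± 0.31 (SE), with a limma Benjamini-Hochberg adjusted p of 0.223.

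Tuba8, an alpha-tubulin isotype, read 0.62, 0.64, 0.49 and 0.53 in wildtype, 0.67, 0.69, 1.21 and 1.10 in Gja9 (-/-) and 1.50, 1.54, 1.34 and 1.11 in Gja9 (+/-) samples. As deposited, every sample of both mutant genotypes was above every wildtype sample. The difference from wildtype was 0.80 ± 0.31 in Gja9 (+/-) and 0.35 ± 0.31 in Gja9 (-/-) brains, neither of which passed. After local centring along the probe numbers, described below with the kinesins, they were 0.99 and 0.04, and again neither passed. Tubb4a, a beta-tubulin of neurons and oligodendrocytes, was 0.84 log2 units lower in Gja9 (-/-) than wildtype with an SE of 0.41, on wildtype arrays that themselves differed (2.95 and 2.71 on the first, 3.74 and 3.83 on the second). The mean of 3 measured oligodendrocyte markers of 8 listed, Mbp, Cnp and Mal, ranged from 0.82 to 1.28 in wildtype, from 0.11 to 1.11 in Gja9 (-/-) and from 0.10 to 1.32 in Gja9 (+/-) samples, with a median difference of -0.64 between Gja9 (-/-) and wildtype and 0 passing. Their part in the Tubb4a value was not tested. Tubb3, the neuronal beta-tubulin, had the same mean in both, with a difference of -0.01 ± 0.39, while its Gja9 (-/-) arrays read 2.14 and 2.14 against 3.52 and 3.49. Tubb4b, another beta-tubulin, had the same clone spotted 3 times and differed by 0.49 ± 0.33, with single spots from 0.14 to 1.08. After local centring Tubb4b differed by 0.70, with an adjusted p of 0.148 (limma). Tubg1 and Tubg2, gamma-tubulins that seed new microtubules, differed by -0.27 and -0.16.

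Among the proteins that stabilise or sequester microtubules, 0 of 5 passed in any comparison. Mapt, which encodes tau, an axonal stabiliser, was read by 5 clones and differed from wildtype by -0.05 ± 0.31 in Gja9 (-/-) and by -0.19 ± 0.31 in Gja9 (+/-) brains. Its single clones ran from -0.86 to 0.58 in the first comparison. Map2, the dendritic counterpart, differed by -0.30 ± 0.34 and -0.07 ± 0.34. After local centring the Map2 differences were larger, at -0.64 and -0.28, the first with an adjusted p of 0.201 (limma). Stmn1 (stathmin), which binds free tubulin dimers, read 3.06, 3.22, 3.39 and 3.29 in wildtype and 3.75, 3.78, 3.71 and 3.57 in Gja9 (-/-) samples, which did not overlap. The difference of 0.46 ± 0.35 had an adjusted p of 0.662 in limma. Stmn3, its neuronal relative, differed by -0.38 ± 0.32 and -0.53 ± 0.32, and both mutant genotypes lay below all wildtype samples. Its 2 clones disagreed in Gja9 (-/-) brains, at -0.87 and 0.10, and read -0.48 and -0.59 in Gja9 (+/-) brains.

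Kinesins leaned lower in Gja9 (-/-) brains without any gene passing. Of 17 genes, 12 were negative and 5 positive against wildtype, with a median of -0.38 beside -0.10 over all features. Klc1, a light chain that couples conventional kinesin to cargo, read 0.34, 0.44, 0.46 and 0.48 in wildtype, -1.04, -0.92, 0.03 and 0.04 in Gja9 (-/-) and 0.26, 0.28, 0.17 and 0.24 in Gja9 (+/-) samples. All Gja9 (-/-) samples were lowest, and their first array lay about 1 unit below their second. The difference from wildtype was -0.90 ± 0.31 with an adjusted p of 0.283 (limma).

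The lean of the median was no longer seen after centring along the probe numbers. Local centring took from every value the median deviation of the 50 probes before and the 50 after it in the same sample. On the first Gja9 (-/-) array that local median was -1.25 around the Klc1 clones, and after centring Klc1 differed by 0.06. The kinesin median went from -0.38 to 0.000547, and the median of all 85 genes, which the same kinesin, Kif3b, supplied after centring, from -0.17 to the same value. The median of all features went from -0.10 to -0.01, as the step itself draws the median of many genes toward 0. Kif26a, an atypical kinesin without motor activity, went from -1.01 ± 0.43 to -0.27, with a local median of -1.03.

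Kif23, a mitotic kinesin needed for the final separation of daughter cells, read -0.54, -0.45, 0.02 and 0.10 in wildtype, -1.62, -1.42, -0.88 and -0.84 in Gja9 (-/-) and -0.86, -0.94, -0.93 and -1.06 in Gja9 (+/-) samples. Both mutant genotypes lay below every wildtype sample and overlapped with each other. The differences from wildtype were -0.97 ± 0.34 and -0.73 ± 0.34, with limma adjusted p-values of 0.288 and 1, and -0.65 and -0.76 after local centring. Kif1a read 1.13, 1.61, -0.45 and -0.03 in wildtype, 1.74, 2.12, 0.78 and 1.05 in Gja9 (-/-) and -0.05, 0.32, -0.30 and -0.09 in Gja9 (+/-) samples. The Gja9 (-/-) samples were all above the Gja9 (+/-) samples, and the wildtype samples overlapped with both. Gja9 (-/-) exceeded Gja9 (+/-) by 1.45 ± 0.45, or 2.74-fold, with an adjusted p of 0.167 (limma), and by 1.48 after local centring.

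Dynein, the motor that returns cargo, and dynactin, its activator, showed no common direction in the values as deposited. None of 14 subunits passed, and against wildtype 7 were positive and 7 negative in Gja9 (-/-) brains, while 4 were positive and 10 negative in Gja9 (+/-) brains. After local centring the median in Gja9 (-/-) brains was 0.23 against wildtype and 0.26 against Gja9 (+/-), beside -0.01 and -0.02 over all features. As deposited these medians were -0.03 and -0.06, beside -0.10 and -0.17. Dctn5 and Dctn6, neighbours at the pointed end of dynactin, ran opposite ways, at -0.67 ± 0.31 and 0.62 ± 0.39 against wildtype. After local centring these were -0.30 and 0.47. Dctn6 read -1.14, -1.34, -0.85 and -0.93 in Gja9 (+/-) and 0.07, 0.04, -0.22 and -0.32 in Gja9 (-/-) samples, a gap of 0.96 ± 0.39 with an adjusted p of 0.269 (limma). Its wildtype arrays read -0.98 and -1.42 against -0.22 and -0.27, and so overlapped with both. Dynll2, a light chain, was 0.82 ± 0.44 higher in Gja9 (-/-) than in Gja9 (+/-) brains. Actr1a, the actin-related filament of dynactin, differed from wildtype by -0.56 ± 0.37.

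Actin filament regulators had median differences of 0.05, 0.02 and 0.00 in the 3 comparisons, taken as Gja9 (-/-) and Gja9 (+/-) against wildtype and then against each other, and 0 of 10 passed. Arpc1a and Arpc1b are alternative subunits of the complex that branches actin filaments, and they lie next to each other on chromosome 5. Against Gja9 (+/-) brains, Gja9 (-/-) brains were at -0.92 ± 0.40 for Arpc1a and at 0.55 ± 0.31 for Arpc1b, and neither passed. After local centring these were -0.34 and 0.19. Arpc1a read 1.10, 1.15, -0.14 and -0.16 in wildtype samples, a gap of 1.28 between arrays of 1 genotype that was larger than the difference. Actr3, an actin-related core of that complex, was 0.84 ± 0.39 above Gja9 (+/-). Capza2, which caps filament ends, differed from wildtype by -0.31 ± 0.35. Actn1, an actin cross-linker, differed by -0.31 ± 0.27. Actr8 belongs to a nuclear chromatin-remodelling complex, and its difference of -0.58 ± 0.42 rested on 1 array, with -2.93 and -2.97 on the first Gja9 (-/-) array and -1.17 and -1.19 on the second. Its local median on that first array was -1.33, and the centred difference was 0.21. Cflar, which shares only letters with cofilin's symbol, differed by -0.19 ± 0.26.

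Myosins held the gene that passed the test. Myo9a read -0.81, -0.62, -1.81 and -1.49 in wildtype, -3.28, -3.05, -3.01 and -2.67 in Gja9 (-/-) and -2.10, -1.75, -2.04 and -1.86 in Gja9 (+/-) samples. All Gja9 (-/-) samples were below all others, and Gja9 (+/-) samples overlapped with the lower wildtype array. Myo9a fell by 1.82 on the log2 scale in Gja9 (-/-) against wildtype brains (SE 0.32), or 3.54-fold, with an adjusted p of 0.0286 in limma. The difference was -0.75 ± 0.32 between Gja9 (+/-) and wildtype (adjusted p 1) and -1.07 ± 0.32 between Gja9 (-/-) and Gja9 (+/-) (adjusted p 0.156). It rested on 1 clone, which was among the dimmest 25% of features. The fall was as large after local centring, at -1.98 with an adjusted p of 0.0206 (limma), but with each array counted once the adjusted p was 0.130. Left out 1 at a time, wildtype 1, 3 and 4 and Gja9 (-/-) 2 each took the adjusted p in limma above 0.05, with the difference between -1.85 and -1.79 over all single omissions.

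**Figure D2:**
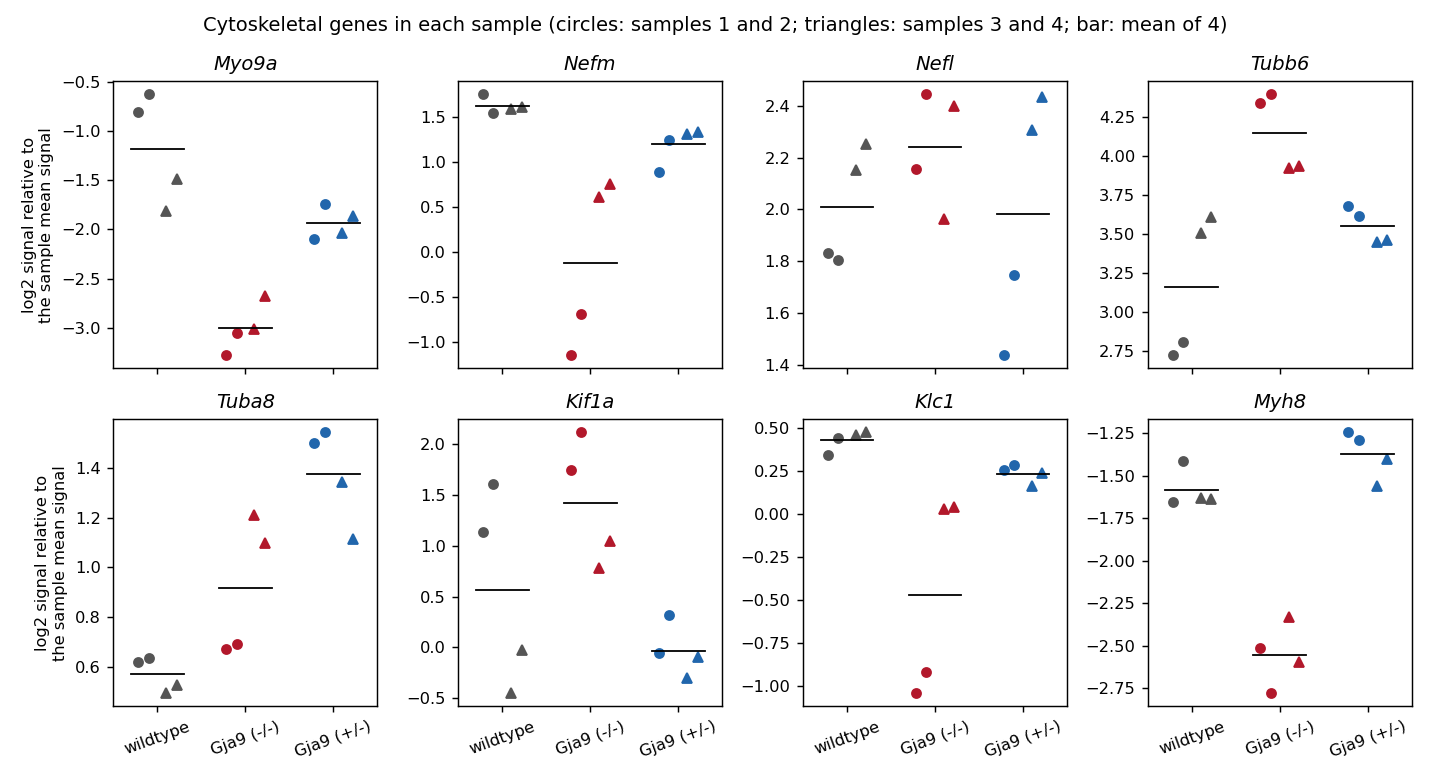
Log2 signal relative to the sample mean signal (vertical axis, a scale per panel) of 8 genes in each of 12 samples. Circles are samples 1 and 2, triangles samples 3 and 4, and bars the means of 4; the 4 Gja9 (-/-) samples of Myo9a lie between -3.28 and -2.67, below all others, while Nefm and Klc1 differ between the Gja9 (-/-) arrays.

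The other 17 myosin chains did not pass in any comparison. Against Gja9 (+/-), 16 of the 18 myosins were negative in Gja9 (-/-) brains and 2 positive, with a median of -0.47 beside -0.17 over all features, and of -0.35 beside -0.02 after local centring. Myh8 read -1.65, -1.41, -1.63 and -1.64 in wildtype, -2.51, -2.78, -2.33 and -2.60 in Gja9 (-/-) and -1.24, -1.29, -1.56 and -1.40 in Gja9 (+/-) samples. Its Gja9 (-/-) samples were all below the others. The differences of -0.97 ± 0.40 from wildtype and -1.18 ± 0.40 from Gja9 (+/-) had limma adjusted p-values of 0.373 and 0.200, and were -0.41 and -0.71 after local centring. Markers of skeletal and cardiac muscle lay low throughout: 0 of the 5 measured of 19 listed, Myh3, Myh8, Myl1, Myl4 and Mb, were above the sample mean signal. Their mean level was -1.53 to -1.24 in wildtype, -1.87 to -1.65 in Gja9 (-/-) and -1.24 to -1.16 in Gja9 (+/-) samples. All but Mb are themselves among the 18 myosins, Myh8 included, so this mean is no separate reading beside them.

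Non-muscle myosin light chains pointed in both directions. Myl6, the essential light chain, read 1.50, 1.49, 1.96 and 2.03 in wildtype, 2.25, 2.21, 2.27 and 2.33 in Gja9 (-/-) and 1.19, 1.17, 1.97 and 1.90 in Gja9 (+/-) samples. The Gja9 (-/-) samples were the highest, by 0.52 ± 0.30 over wildtype and 0.71 ± 0.30 over Gja9 (+/-). After local centring Myl6 differed from them by 0.28 and 0.33. Its gene neighbour on chromosome 10, Myl6b, differed from the same groups by -0.10 and -0.52. The regulatory light chains Myl9 and Myl12a were 0.53 ± 0.31 and 0.56 ± 0.30 above wildtype in Gja9 (+/-) brains, while Myl12b differed by -0.12 ± 0.29. In that comparison 7 of the 18 myosins did not overlap with wildtype on the higher side and 0 on the lower, beside 8.67% and 6.09% of all features. Myo1c, a membrane-linked class I myosin, read -0.27 and -0.34 on the first Gja9 (-/-) array and -2.54 and -2.83 on the second, the widest gap between arrays of 1 genotype among the 85 genes. Its 8 other samples lay between -0.59 and -0.25. Without the first Gja9 (-/-) array, Myo1c passed against both other genotypes and Myo9a did not, at -1.66 from wildtype with an adjusted p of 0.0860 (limma). That fit leaves 1 array for Gja9 (-/-), the one on which Myo1c was low, so it holds no spread between arrays of that genotype.

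The 2 neurofilament genes are neighbours on chromosome 14, and neither passed. Nefm, the medium subunit, read 1.76, 1.55, 1.59 and 1.62 in wildtype, -1.14, -0.69, 0.62 and 0.76 in Gja9 (-/-) and 0.90, 1.25, 1.32 and 1.34 in Gja9 (+/-) samples. The genotypes did not overlap, with wildtype highest and Gja9 (-/-) lowest. Nefm was 3.34-fold lower in Gja9 (-/-) than wildtype brains, a difference of -1.74 ± 0.53 with an adjusted p of 0.217 (limma), and thus did not pass. Local centring, with a local median of -1.04 on the first Gja9 (-/-) array, left -0.98 with an adjusted p of 0.156 (limma).

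Nefl, the light subunit, read by 3 clones, gave 1.83, 1.80, 2.15 and 2.25 in wildtype, 2.16, 2.45, 1.96 and 2.40 in Gja9 (-/-) and 1.44, 1.75, 2.31 and 2.44 in Gja9 (+/-) samples. The 3 genotypes overlapped. The difference from wildtype was 0.23 ± 0.38 in Gja9 (-/-) and -0.03 ± 0.38 in Gja9 (+/-) brains, with single clones from 0.13 to 0.39 in the first. The difference between the 2 genes' responses was not tested.

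**Figure D3:**
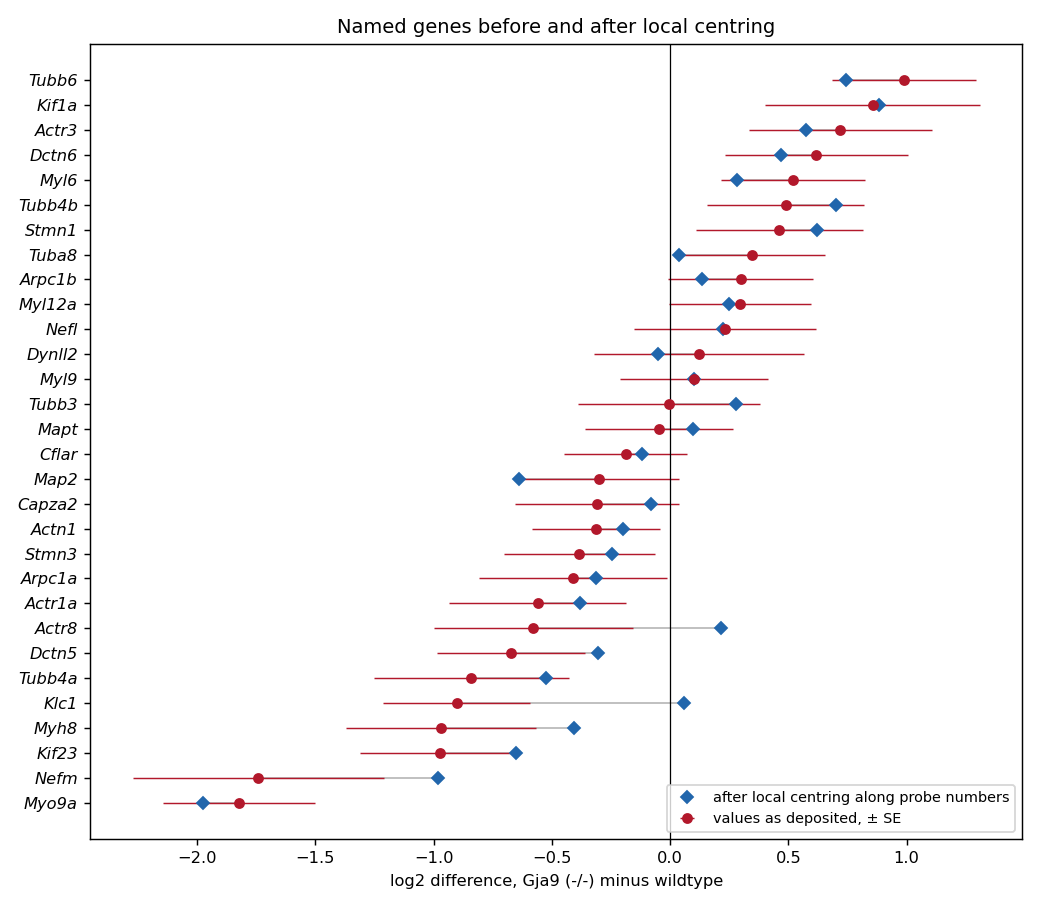
Log2 difference between Gja9 (-/-) and wildtype brains (horizontal axis) of 30 genes, as deposited (red, ± SE) and after local centring along the probe numbers (blue). Klc1 moved from -0.90 to 0.06, Actr8 from -0.58 to 0.21 and Nefm from -1.74 to -0.98, while Myo9a lay at -1.82 and -1.98.

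Separate clones of 1 gene offered a second reading of 34 genes, and they often disagreed. Between Gja9 (-/-) and wildtype brains all clones had the same sign for 13 of 34 genes (38.2%), beside 43.2% of the 2586 genes of the array with at least 2 clones. The counts were 10 (29.4%, beside 40.7%) for Gja9 (+/-) against wildtype and 16 (47.1%, beside 44.9%) for Gja9 (-/-) against Gja9 (+/-). The median correlation between clones of a gene over the 12 samples, described here without a test since samples share arrays, was -0.09 for the 34 genes and 0.03 for all. For 55 genes whose same clone accession was spotted more than once it was 0.41.

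The clones of Kif5b, a heavy chain of conventional kinesin, were widest apart, from -1.78 to 0.43. Those of Dynll1, a dynein light chain, read -1.41 and 0.24. The closest between Gja9 (-/-) and wildtype brains were those of Myl6b, at -0.10 and -0.10. Those 2 clones read 0.68 and 0.16 between Gja9 (+/-) and wildtype brains, and correlated by -0.17 over the 12 samples. A median clone correlation above 0.5 was found in 7 of the 34 genes (20.6%, beside 17.4% of all), Capza2, Dynlrb1, Dynlt1b, Kif26a, Klc1, Klc4 and Myl4, of which Dynlrb1 was highest at 0.86. The clones of Klc1 both read lower in Gja9 (-/-) brains, at -0.79 and -1.02, and so did those of Kif26a, at -1.06 and -0.97.

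**Figure D4:**
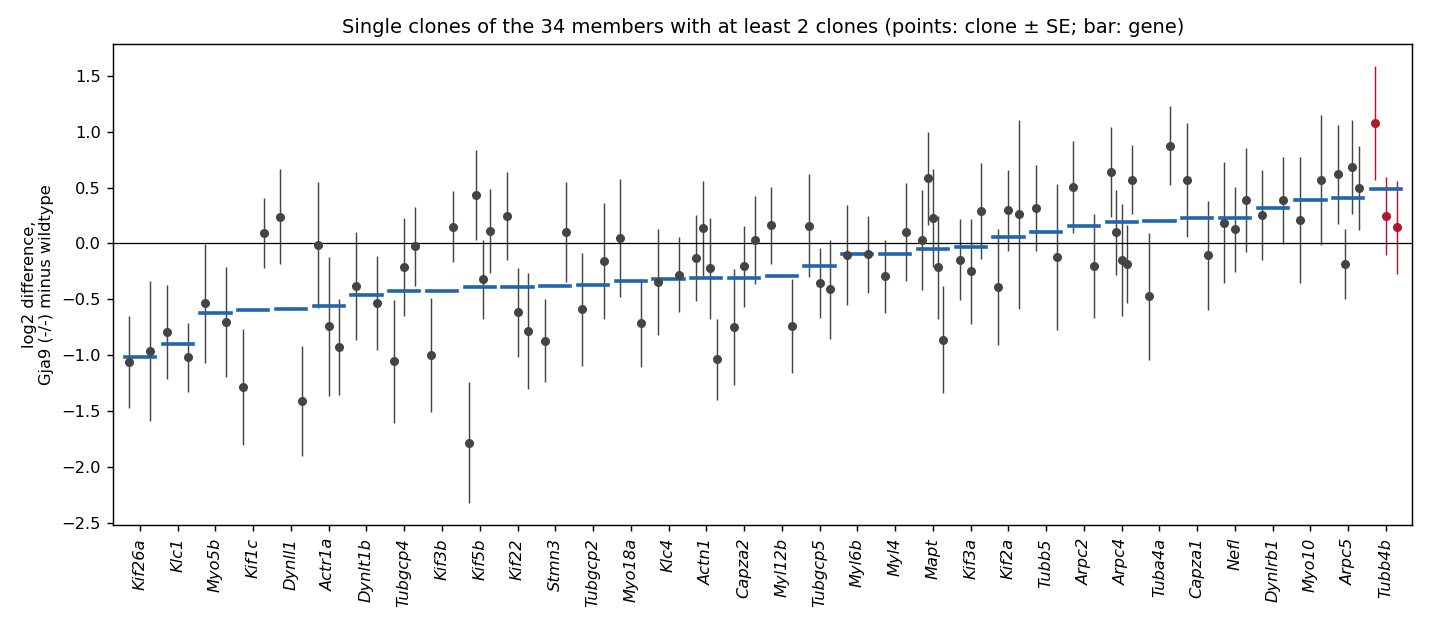
Log2 difference between Gja9 (-/-) and wildtype brains (vertical axis) of each clone (points ± SE) of the 34 genes with at least 2 clones, ordered by the mean over clones (bars). Red marks Tubb4b, whose 3 spots hold the same clone; 13 genes have all clones on 1 side of 0, and the Kif5b clones span 2.21 log2 units.

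Other cytoskeletal genes outside these name stems, from a list of 144 of which 83 were measured, also gave 0 that passed in any comparison. At an unadjusted p under 0.05, 2 were higher and 6 lower in Gja9 (-/-) than wildtype, 2 and 1 in Gja9 (+/-) than wildtype, and 3 and 7 in Gja9 (-/-) than Gja9 (+/-) brains. The shares of all features were 2.41% and 9.22%, 1.67% and 0.515%, and 3.64% and 11.3%. Their median differences were -0.12, 0.00 and -0.14. The smallest adjusted p was 0.0704 (limma), for Clasp1, which tracks and stabilises microtubule ends, at -1.63 ± 0.35 between Gja9 (-/-) and Gja9 (+/-).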

How the data were processed

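Total RNA of 12 brain samples, 60 micrograms per sample, was labelled with Cy5 or Cy3 and hybridised to 6 spotted cDNA arrays, per the labels' protocols. The deposited values are log2 signals relative to each sample's mean signal, a scale settled from the values. How the authors corrected background and dye, filtered probes and normalised, and the genome build of the clones, are steps not given in the sources used here. The number of arrays limits the precision. For 2 samples, wildtype 3 and Gja9 (-/-) 1, the labelling text and the label field name different dyes, and the field was followed.

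Of 28704 probes, 13443 had values, in all samples. Clones of 1 gene were averaged, and 10 probes of several genes, with at least 1 gene of each matching a stem, were left out. The other probes without a single gene were tested alone. Symbols are those of the probe table, and all 85 are the same in the mouse RefSeq gene table. Arrays were paired from the values: the correlation of the difference between samples 1 and 3 with that between 2 and 4 was 0.940 in wildtype, 0.933 in Gja9 (-/-) and 0.919 in Gja9 (+/-).

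For the tests, limma 3.58.1 (R 4.3.3) was fitted to all 12 samples and 9514 features with terms for genotype and dye. Arrays entered as random blocks through duplicateCorrelation, whose consensus correlation was 0.927. Tests were two-sided and adjusted by Benjamini-Hochberg over all features. The genes and lists were chosen with earlier results of these data known. Named genes were those that passed, per comparison the 4 higher and 4 lower of smallest unadjusted p, per role up to 3 of smallest F-test p, a set of well-known neuronal members and Cflar. Genes named beyond this rule (Dynll1, Dynlrb1, Dynlt1b, Kif26a, Kif3b, Kif5b, Klc4, Myl12b, Myl4, Myl6b, Myo1c, Tubg1 and Tubg2) were chosen after their values were seen. Deviations of same-numbered samples from their group means correlated by 0.11 to 0.23 in the 4 pairs of wildtype with Gja9 (+/-), all over 0.1, and by -0.09 to 0.07 in the 8 pairs with Gja9 (-/-). By that rule the numbers pair samples in the first comparison only, a pairing that comes from the values and not from the labels. Alternatives covered the block, dye, normalisation, local centring, clones, dim probes, spread model, threshold, samples and each replicate.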

Additional observations from a re-analysis of the deposited data

Results flagged for a closer look

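Myh8 in wildtype brains was the 1 gene of the 30 named by rule, out of 90 sets of 4 samples, in which a sample stood apart. Sample 2 was at -1.41, and the other 3 lay between -1.65 and -1.63, so the gap took 0.895 of the range, above the 95% critical value of Dixon for 4 samples. Chance passes that value in about 5% of sets. The other sample of the same array was at -1.65.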

How the results depend on the processing

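For Gja9 (-/-) against wildtype, 0 of the 85 genes passed with array means, array means with local centring, cyclic loess, each clone alone, no dye term, only the 2 genotypes compared, quantile normalization or without the dimmest 25% of features, which removes Myo9a. Leaving out single samples gave 0 to 1. Myo9a passed alone with median centring, local centring and robust eBayes. With no array block the counts were 11 for this comparison, 22 for Gja9 (-/-) against Gja9 (+/-) and 13 in the F-test, beside 15.4%, 22.3% and 21.0% of all features. The F-test gave 1 with local centring and at an adjusted p under 0.1. Without the first Gja9 (-/-) array, 1 gene, Myo1c, passed in each of these 3 tests, in which 1 array stood for that genotype. Counts for Gja9 (+/-) against wildtype were 0 throughout.

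The replicate number as a replicate block, with no array block, gave 16, 24 and 21 genes in the same 3 tests, beside 18.6%, 26.2% and 25.2% of all features. For Gja9 (+/-) against wildtype it gave 0 beside 1.42%, and so changed no call among these genes.

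The median difference over the 85 genes moved to 0.000547 for Gja9 (-/-) against wildtype under local centring, alone or with array means. For Gja9 (-/-) against Gja9 (+/-) it was -0.0320 under both, -0.0860 with median centring and -0.0947 without the first Gja9 (-/-) array. Klc1 turned to 0.0598 against wildtype under both forms of local centring. Of 641 values of single genes under alternatives, 603 kept direction and side of the threshold, 12 lost the call, all Myo9a, 24 gained it with no array block or the replicate block, and 2 reversed. Precision is limited by 2 arrays per genotype, by 51 genes read by 1 clone only and by signal over background, which these values do not give. Causes of the changes between settings were not tested, except that fits without an array block take both colours of an array as separate readings.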
